A study of Arabidopsis thaliana with 9 samples.

Results

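The genes described here are 485 of the 27218 genes in the deposited tables: the loci whose description reads non-coding RNA, with 4 loci set aside by the rule and a summed count of 45 or more over the 9 libraries. Non-coding RNA was the description of 2074 loci, of which 1587 fell under that minimum and 428 had no count in any library. AT5G02525, AT5G08965 and AT5G03615 stood just inside the minimum with 45 counts each, and AT3G02015 with 44 and AT4G03595 and AT2G06905 with 43 counts stood just outside it. All 9 libraries came from whole Arabidopsis thaliana seedlings, 2 weeks old and held at 45 °C for 3 h, so the libraries hold no unheated state. SR45a-1a-OE overexpresses the SR45a-1a form of SR45a, a serine/arginine-rich RNA-binding protein of pre-mRNA splicing. sr45a is a mutant of the same gene, WT is the wild type, and each genotype gave 3 libraries. The promoter behind the overexpression and the allele of the mutant are not given in the sources used here, nor is what separates the libraries of a genotype, so p-values reflect only how these libraries vary, a variation that may be technical.

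Non-coding RNA genes yield transcripts that act as RNA or whose function is unknown. Small nucleolar RNAs (snoRNAs) guide the chemical modification of ribosomal RNA. Trans-acting siRNA (TAS) transcripts are cut under the guidance of a microRNA, copied into double-stranded RNA by RDR6 and diced into small RNAs that silence other messages. Long non-coding RNAs, among them natural antisense transcripts, are often weakly expressed, and several are known to respond to stress in plants.

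SR45a (AT1G07350) followed the labels: it averaged 1094 ± 81.6 CPM in SR45a-1a-OE, 4.57 ± 2.68 in sr45a and 418 ± 15.97 in WT (SD, n = 3 each). CPM is the count scaled to a common library size. Gene counts summed to 18036195 to 21864604 per library. On the first principal component of all genes, with 36.6% of the variance, replicate 3 of SR45a-1a-OE and replicate 3 of sr45a lay far from the other libraries of their genotype. Organ markers moved with genotype: of 14 markers 12 were tested, and 2 rose and 2 fell in SR45a-1a-OE against WT and 4 rose and 1 fell in sr45a against WT. The summed CPM of 4 seed markers was 0.928 to 6.01 in SR45a-1a-OE, 21.9 to 39.3 in sr45a and 0.557 to 0.781 in WT, where the seed marker SESA1 was at 0 in every library. That of 4 root markers was 109 to 172, 113 to 149 and 202 to 206, and that of 3 leaf markers was 18709 to 23063, 21216 to 23318 and 17375 to 20628 in the same order of genotypes. In whole seedlings, fewer cells of a type and less RNA per cell cannot be told apart, and the part of organ makeup in the results was not tested.

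By the TAIR10.1 annotation, 348 of the 485 genes were long non-coding RNAs, 101 other non-coding RNAs, 34 snoRNAs, 1 a small nuclear RNA and 1 an antisense RNA. Of these genes, 214 lay antisense to a protein-coding gene, 234 between coding genes and 37 overlapped a coding gene on the same strand. They were weakly expressed. The median of their mean level was 0.874 CPM, beside 15.1 CPM for the 20111 protein-coding genes with 45 counts or more, and per length it was 1.78 FPKM beside 8.12 FPKM. FPKM is the deposited value scaled to gene length and library size. Together the 485 genes took 0.223 to 0.313% of the counts of a library, and 5 genes took 32.0 to 36.9% of that. The test used 396 of them, and the 89 with too few counts averaged 0.236 to 0.472 CPM.

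Per length, the strongest were AT1G06283, GUT15, AT4G13495, AT3G06355 and AT1G74453. GUT15 (AT2G18440, chr2:7994941-7997239, minus strand) is a known unstable RNA without a long open reading frame. It had 529, 421 and 536 CPM in SR45a-1a-OE, 347, 425 and 386 in sr45a and 416, 422 and 462 in WT. These groups overlapped, and none of the 3 comparisons passed the test. AT1G06283, the snoRNA gene AtsnoR5b, averaged 410 ± 267 FPKM in SR45a-1a-OE, 350 ± 118 FPKM in sr45a and 470 ± 122 FPKM in WT (SD, n = 3 each). Its library values spread from 25.6 to 99.6 CPM within SR45a-1a-OE alone. AT3G06355 reached 144 CPM in WT replicate 1, against 42.0 and 51.4 CPM in the other 2 WT libraries. Nearly all of their bases, 99.3% of AT1G06283 and 99.8% of AT3G06355, have copies of at least 95% identity elsewhere in the genome, so their reads could not be assigned with certainty. AT4G13495 averaged 143 ± 55.1, 121 ± 23.8 and 163 ± 12.9 FPKM, and the snoRNA gene AT1G74453 176 ± 47.7, 137 ± 60.3 and 107 ± 14.6 FPKM, in SR45a-1a-OE, sr45a and WT. Neither passed in any comparison.

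The TAS loci carry the microRNA sites that start their processing, shown here because the 6 loci differ in the microRNA that starts them. TAS4 was the one of these loci that passed a test. TAS3, like TAS4, has a microRNA that none of the others shares, and it passed in no comparison. A link between site and call was not tested. The mature microRNAs and sites were read from the TAIR10.1 genome and written as DNA. Capitals in a microRNA mark the seed, bases 2 to 8, and capitals in a site mark the bases that pair with its microRNA as A with T or G with C. A G that faces a T, which is a G:U pair in RNA, is left in lower case.
miR173: tTCGCTTGcagagagaaatcac
TAS1A site, chr2:11722081-11722102, minus strand: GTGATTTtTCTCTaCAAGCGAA
TAS1B site, chr1:18549660-18549681, minus strand: GTGATTTtTCTCaaCAAGCGAA
TAS1C site, chr2:16537890-16537911, minus strand: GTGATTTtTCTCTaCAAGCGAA
TAS2 site, chr2:16539991-16540012, minus strand: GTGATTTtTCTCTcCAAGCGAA
miR390a: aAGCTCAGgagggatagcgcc
TAS3 site, chr3:5862099-5862119, plus strand: GGtGtTATCCtatCTGAGCTT
miR828: tCTTGCTTaaatgagtattcca
TAS4 site, chr3:9417809-9417830, minus strand: TGGAATACTCATTTgAGCAAGA
The miR173 sites of TAS1A, TAS1C and TAS2 paired at 20 of 22 bases and that of TAS1B at 19. The miR828 site of TAS4 paired at 21 of 22 and the TAS3 site at 16 of 21. G:U pairs are not in these numbers. The lower-case base of TAS4 and all but 1 of those of TAS3 face their microRNA as G:U.

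TAS2 (AT2G39681) had 50.9, 27.1 and 65.5 CPM in SR45a-1a-OE, 40.5, 58.4 and 29.1 in sr45a and 38.1, 47.2 and 49.95 in WT. TAS1A (AT2G27400) had 25.4, 17.5 and 26.9 CPM in SR45a-1a-OE, 24.5, 29.4 and 14.5 in sr45a and 26.5, 24.1 and 25.9 in WT. In both genes the lowest 2 of the 9 libraries were SR45a-1a-OE replicate 2 and sr45a replicate 3, and the genotypes overlapped. Summed over the 6 TAS loci those libraries had 67.6 and 63.8 CPM, and the other 7 had 89.9 to 129 CPM. TAS1B (AT1G50055), TAS1C (AT2G39675) and TAS3 (AT3G17185, whose small RNAs target auxin response factors) averaged 11.1 ± 3.35, 10.9 ± 1.94 and 7.0 ± 2.12 CPM in SR45a-1a-OE, 9.53 ± 2.68, 9.89 ± 1.53 and 6.23 ± 1.0 in sr45a and 9.26 ± 2.82, 11.5 ± 0.533 and 7.80 ± 0.679 in WT (SD, n = 3 each). None of these 5 loci passed in any comparison. The 95% intervals of the log2 fold change bound the difference at −0.56 to 0.30 for TAS1A, −0.39 to 0.23 for TAS1C and −0.48 to 0.65 for TAS2 in SR45a-1a-OE against WT, and at −0.60 to 0.27, −0.52 to 0.09 and −0.65 to 0.49 in sr45a against WT.

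TAS4 (AT3G25795), annotated as raised by phosphate starvation and as activated by MYB75, was the weakest of the 6. It had 11, 21 and 7 counts in SR45a-1a-OE, 2, 2 and 4 counts in sr45a and 16, 13 and 14 counts in WT, which is 0.325 to 0.971, 0.0924 to 0.199 and 0.597 to 0.709 CPM. All 3 sr45a libraries lay below the other 6. TAS4 was higher in SR45a-1a-OE than in sr45a by 2.17 log2 units (SE 0.54, adjusted p = 0.0353). In sr45a against WT its log2 fold change was −2.25 (SE 0.54, adjusted p = 0.0631), which missed the threshold. The first call ended when any 1 of 7 libraries was left out, at adjusted p from 0.0501 to 0.162, and held only without SR45a-1a-OE replicate 3 or sr45a replicate 3.

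**Figure D1:**
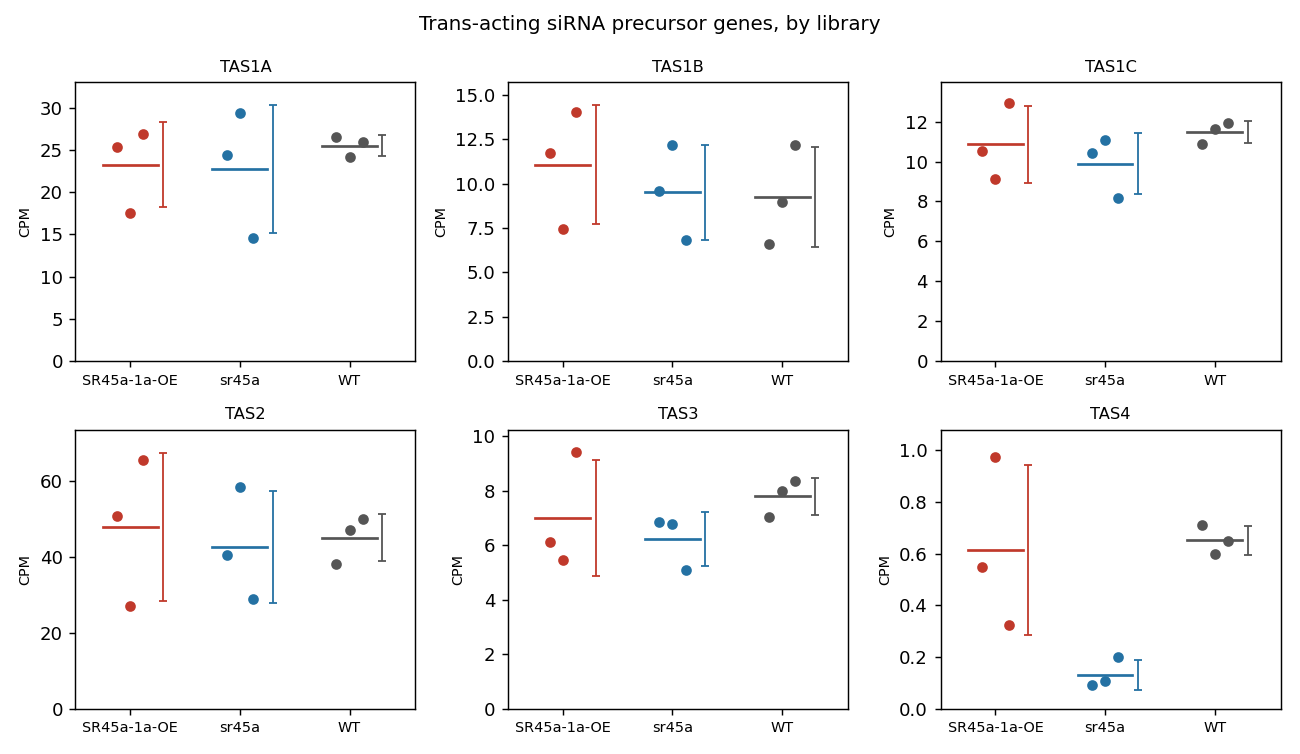
Level in CPM of 6 trans-acting siRNA precursor genes in SR45a-1a-OE, sr45a and WT. Points are libraries, horizontal lines group means and bars SD (n = 3). TAS4 lies at 0.0924 to 0.199 CPM in the 3 sr45a libraries and at 0.325 to 0.971 CPM in the other 6, while the groups overlap for TAS1A, TAS1B, TAS1C and TAS2.

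Of 11 known targets of the TAS small RNAs, 7 were tested. ARF4, an auxin response factor, was lower in SR45a-1a-OE than in WT, with 30.0 ± 1.58 CPM against 41.7 ± 3.45 CPM (log2 change −0.47 ± 0.09 SE, adjusted p = 0.00857), and stood at 31.8 ± 0.499 CPM in sr45a. In sr45a against WT its groups did not overlap either, but the log2 change of −0.39 ± 0.09 (SE) missed the threshold (adjusted p = 0.0621), while DESeq2 called 1 of the 7 targets lower there. HTT1, a TAS1 target that promotes heat tolerance, was lower in SR45a-1a-OE than in sr45a, at 1.42 ± 0.603 against 2.99 ± 0.377 CPM (log2 change −1.08 ± 0.29 SE, adjusted p = 0.0447). The other tested targets, HTT2, HTT4, ARF2, ARF3 and MYB75, passed in no comparison with edgeR.

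Of the 34 snoRNA genes, 29 were tested. In SR45a-1a-OE against WT 4 rose and 0 fell, where 6.76% of all genes tested rose and 8.59% fell. In sr45a against WT 1 rose and 0 fell, beside 0.861% and 0.761% of all genes, and in SR45a-1a-OE against sr45a 3 were higher and 0 lower, beside 2.81% and 4.45%. A gene rose, fell or passed here when its Benjamini-Hochberg adjusted p, over all 20103 genes tested with edgeR's quasi-likelihood test, was under 0.05. At an unadjusted p under 0.05 the lower snoRNA genes numbered 0, 2 and 0, and with DESeq2 0, 1 and 0. Their median log2 fold changes were 0.44, 0.18 and 0.14, beside 0.01, −0.00 and 0.01 for all genes. The summed level of all 34 snoRNA genes was 158, 103 and 191 CPM in SR45a-1a-OE, 97.9, 144 and 92.1 in sr45a and 101, 131 and 142 in WT, and the genotypes overlapped. Without AT1G06283, whose reads are uncertain and whose levels spread widely, the sum was 107, 77.2 and 91.0 CPM in SR45a-1a-OE, 53.4, 79.9 and 57.2 in sr45a and 56.4, 58.4 and 63.0 in WT. Only without that gene did the 3 SR45a-1a-OE sums lie above all WT sums, and sr45a replicate 2 lay above SR45a-1a-OE replicate 2.

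The 4 snoRNA genes that passed are shown with the letters TGATGA and CTGA, as found in the C and D boxes of box C/D snoRNAs, in capitals. AT5G02565 holds both on this strand, AT4G09845 holds CTGA without TGATGA, and AT1G09533 and AT3G07725 hold neither. A match of these letters is a description and not a shown box.
AT4G09845 (AtsnoR99), chr4:18305108-18305210, plus strand: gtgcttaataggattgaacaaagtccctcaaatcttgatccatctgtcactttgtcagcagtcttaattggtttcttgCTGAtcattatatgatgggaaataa
AT1G09533 (snoR160), chr1:28212219-28212357, plus strand: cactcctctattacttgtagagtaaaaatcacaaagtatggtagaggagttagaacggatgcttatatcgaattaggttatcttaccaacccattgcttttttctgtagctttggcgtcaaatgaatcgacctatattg
AT3G07725 (snoR136), chr3:17445498-17445652, plus strand: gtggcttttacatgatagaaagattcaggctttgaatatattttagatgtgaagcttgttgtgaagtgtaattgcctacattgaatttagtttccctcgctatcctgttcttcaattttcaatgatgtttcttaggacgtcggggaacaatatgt
AT5G02565 (AtsnoR106), chr5:5448918-5449170, plus strand: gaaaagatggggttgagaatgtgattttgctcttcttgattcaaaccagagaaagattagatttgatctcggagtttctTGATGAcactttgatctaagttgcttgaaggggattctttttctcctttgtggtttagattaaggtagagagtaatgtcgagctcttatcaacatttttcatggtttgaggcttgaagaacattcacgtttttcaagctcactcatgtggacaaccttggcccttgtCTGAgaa
All 4 lie between coding genes.

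AT4G09845 had 27.6, 22.1 and 16.1 CPM in SR45a-1a-OE, 6.29, 5.87 and 8.06 in sr45a and 13.9, 9.79 and 12.3 in WT. The 3 genotypes did not overlap. It was higher in SR45a-1a-OE than in sr45a by 1.70 log2 units (SE 0.21, adjusted p = 0.00155) and than in WT by 0.87 (SE 0.20, adjusted p = 0.0156), and its value in sr45a against WT was −0.83 (SE 0.21, adjusted p = 0.0800). Its neighbour UBP27, 925 bp away, had log2 fold changes of 0.13 and 0.32 in the first 2 of these comparisons and passed in neither. AT3G07725 had 8.30, 4.25 and 5.98 CPM in SR45a-1a-OE, 2.08, 2.43 and 2.34 in sr45a and 3.41, 2.34 and 3.39 in WT. AT1G09533 had 6.91, 5.50 and 5.57 CPM in SR45a-1a-OE, 2.08, 2.06 and 3.53 in sr45a and 2.92, 3.26 and 4.22 in WT. In both genes every SR45a-1a-OE library exceeded the other 6. Their log2 fold changes were 1.43 (SE 0.26, adjusted p = 0.00951) and 1.23 (SE 0.24, adjusted p = 0.0133) in SR45a-1a-OE against sr45a, and 1.02 (SE 0.25, adjusted p = 0.0194) and 0.79 (SE 0.23, adjusted p = 0.0392) in SR45a-1a-OE against WT.

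AT5G02565 behaved otherwise, with WT below both other genotypes. It had 1.64, 0.879 and 1.30 CPM in SR45a-1a-OE, 1.16, 2.75 and 0.995 in sr45a and 0.133, 0.368 and 0.464 in WT, where its counts were 3, 8 and 10. It rose in SR45a-1a-OE by 1.97 log2 units (SE 0.53, adjusted p = 0.0287) and in sr45a by 2.32 (SE 0.52, adjusted p = 0.0486) against WT. Without SR45a-1a-OE replicate 1 or without WT replicate 2, the calls of all 4 snoRNA genes against WT ended in SR45a-1a-OE, at adjusted p from 0.0703 to 0.142.

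**Figure D2:**
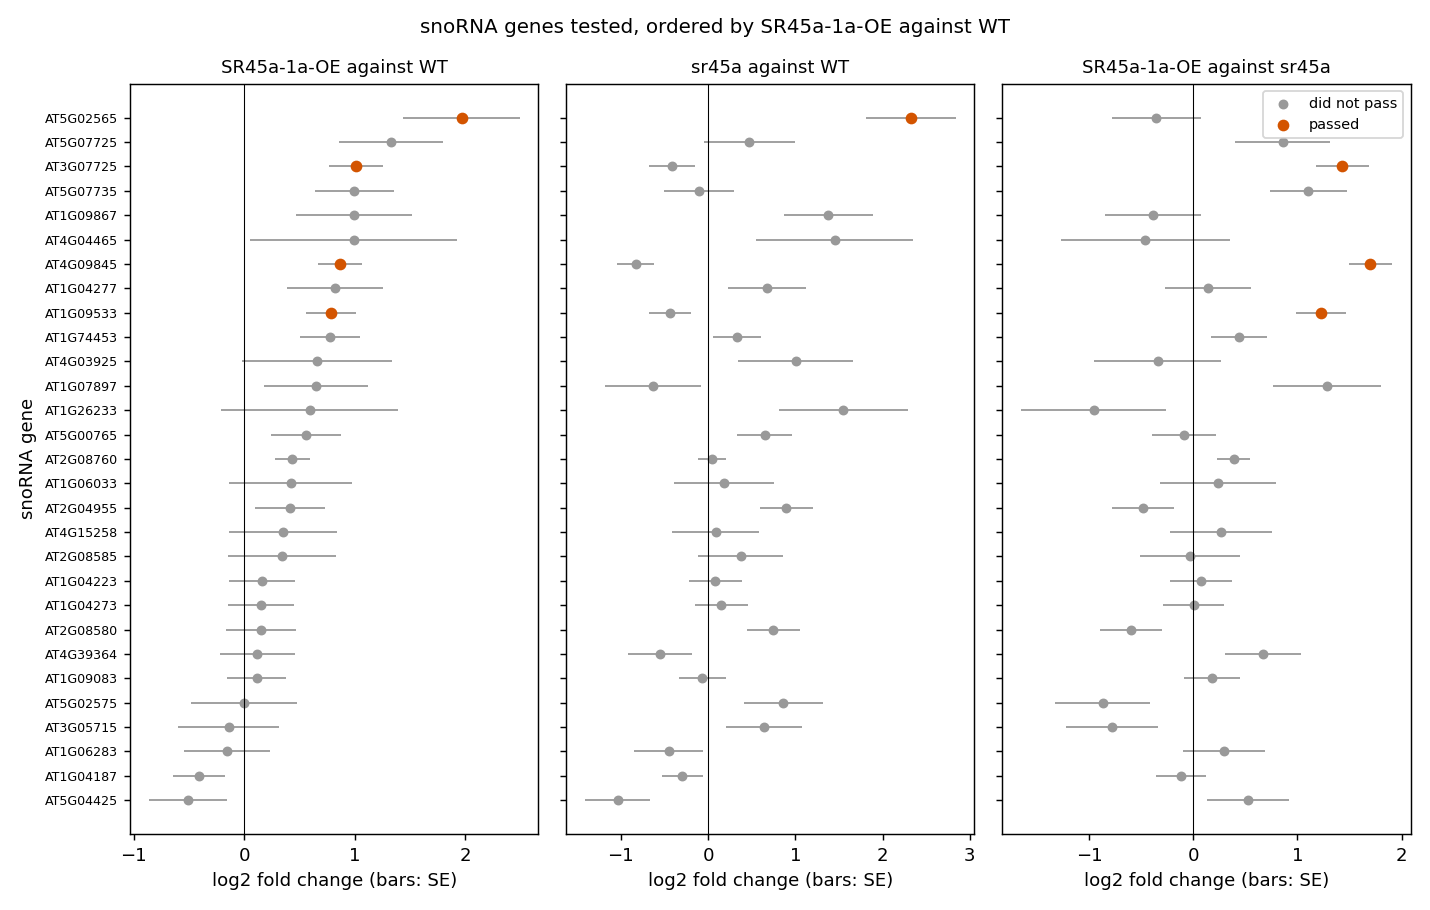
Log2 fold changes with SE for the 29 snoRNA genes tested, in SR45a-1a-OE against WT, sr45a against WT and SR45a-1a-OE against sr45a. Orange points passed the test: 4, 1 and 3 genes, all with positive values.

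SR45a-1a-OE against WT asks which non-coding RNAs differ in heated seedlings when SR45a-1a is raised. AT2G04365, AT2G19582 and AT5G37485 rose, and AT2G05215 fell, in all 18 alternatives tried. AT3G06955 rose and AT4G05025 fell in the 17 alternatives that tested them, since a filter of 1 CPM in 3 libraries left both out. Of the 396 genes tested, 20 rose and 20 fell, which is 10.1% beside 15.3% of all 20103 genes (6.76% higher and 8.59% lower). Their median log2 fold change was 0.09 beside 0.01 for all genes. With a change of 2-fold or more as well, 24 passed, 6.06% beside 3.38% of all genes. In 38 of the 40 the 2 groups did not overlap. These genes were picked by the test and no share over all genes is given, so this is no separate support.

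AT2G04365 is a long non-coding RNA gene on the plus strand at chr2:823453-824086, 595 bp from AT2G02840. It had 5.22, 2.73 and 3.06 CPM in SR45a-1a-OE, 0.555, 0.794 and 0.895 in sr45a and 0.620, 0.276 and 0.789 in WT. All 3 SR45a-1a-OE libraries lay well above the other 6. The log2 fold change was 2.69 (SE 0.38, adjusted p = 0.00332) against WT and 2.29 (SE 0.37, adjusted p = 0.00624) against sr45a. AT5G37485 had 4.42, 3.47 and 3.02 CPM in SR45a-1a-OE, 1.90, 1.85 and 2.34 in sr45a and 1.46, 1.75 and 1.53 in WT, with log2 fold changes of 1.20 (SE 0.22, adjusted p = 0.0070) against WT and 0.84 (SE 0.22, adjusted p = 0.0391) against sr45a. Its neighbour AT5G37480, 224 bp away, changed by 0.16 against WT and did not pass.

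A pair of genes was close to all-or-none between genotypes. Both reached the minimum of 45 counts only through the genotype where they are high, so a difference between genotypes is built into their selection, and their values are given as a description. AT3G06955, at chr3:16498192-16498394 on the minus strand, had 24, 22 and 19 counts in SR45a-1a-OE, 0, 0 and 2 counts in sr45a and 0 counts in each WT library. It was at least 21.8-fold higher in SR45a-1a-OE than in WT if the WT group is set to a floor of 3 counts. Its ratio of SR45a-1a-OE to sr45a was 29.9, with a 95% counting interval of 7.95 to 252. AT4G05025, at chr4:2582655-2583046 on the minus strand, had no count in the 6 SR45a-1a-OE and sr45a libraries and 34, 17 and 12 counts in WT. It was at least 20.9-fold lower in SR45a-1a-OE and at least 19.2-fold lower in sr45a than in WT, with a floor of 3 counts over the group that had none. Such bounds cover counting error only. AT4G05040, the ankyrin repeat gene 365 bp from AT4G05025, changed by log2 0.19 in SR45a-1a-OE and by −0.02 in sr45a and passed in neither.

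**Figure D3:**
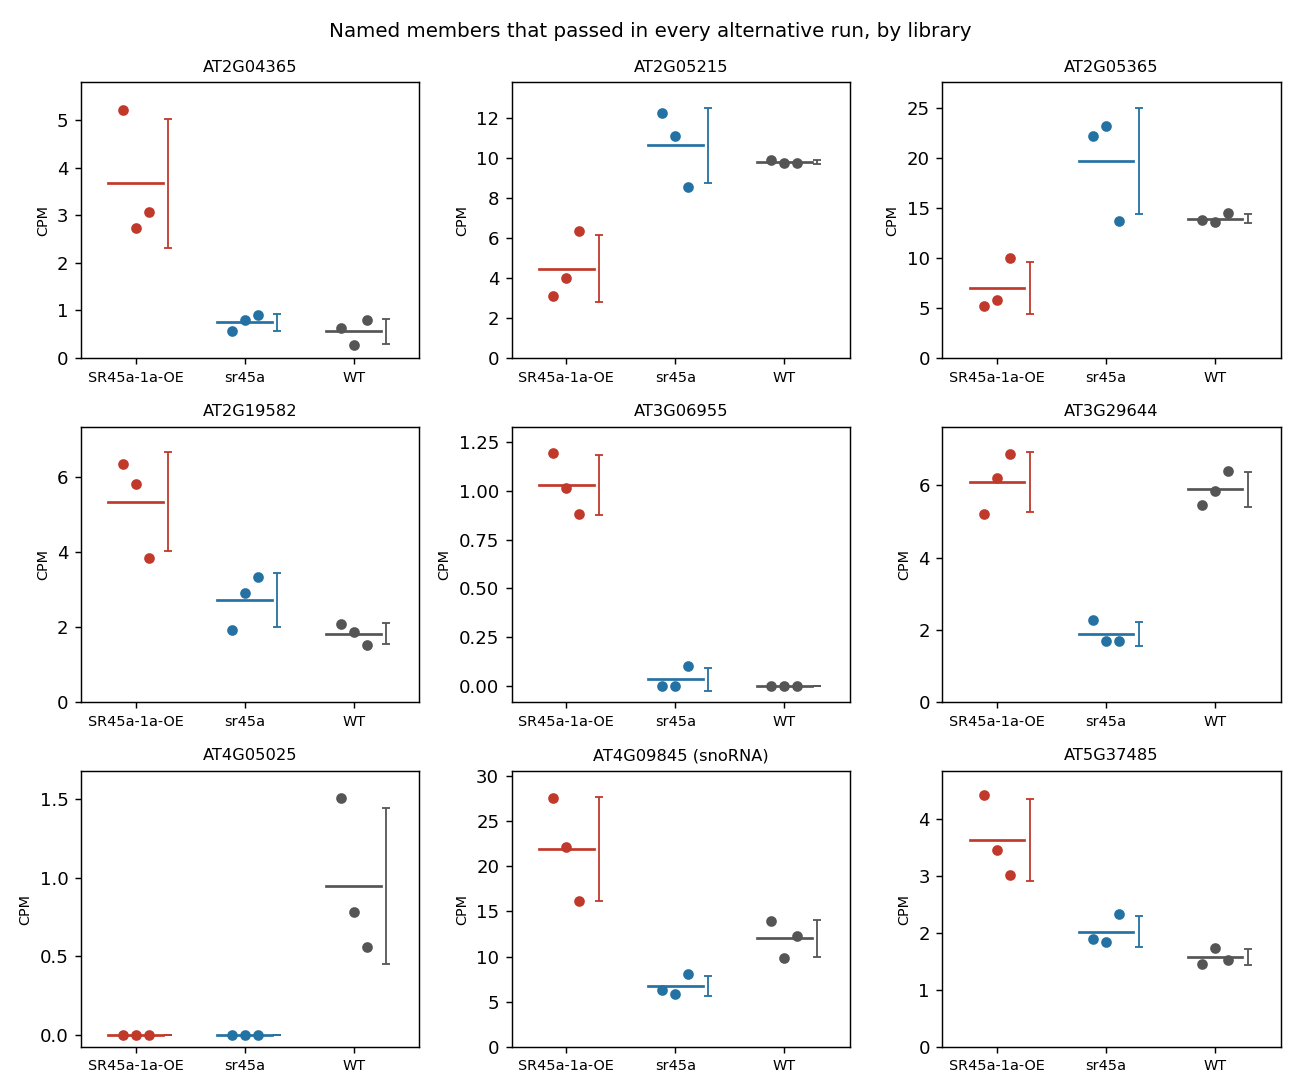
Level in CPM, by library, of the 9 named non-coding RNA genes with a call that held in every alternative that gave a value. Points are libraries of SR45a-1a-OE, sr45a and WT, horizontal lines group means and bars SD (n = 3). AT3G06955 is at or near 0 outside SR45a-1a-OE, and AT4G05025 is at 0 outside WT. Both were selected through the genotype where they are high, so their panels are a description.

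Other genes that rose in SR45a-1a-OE against WT were weaker. AT4G16892, which lies 350 bp from the immune receptor gene SNC1, had 44, 24 and 32 counts in SR45a-1a-OE, 5, 10 and 30 counts in sr45a and 2, 10 and 9 counts in WT (log2 change 2.29 ± 0.62 SE, adjusted p = 0.0306). SNC1 itself changed by 0.18 and did not pass. AT1G05397, AT3G52072, AT1G04827 and AT1G06983 rose by log2 fold changes of 1.46, 1.25, 1.24 and 1.15, at adjusted p of 0.0322, 0.0360, 0.0485 and 0.0279. All 4 were expressed at 0.186 to 0.797 CPM in WT libraries. AT4G36648, the second strongest of the 485 genes by CPM, rose least. It had 299, 224 and 242 CPM in SR45a-1a-OE, 148, 187 and 182 in sr45a and 190, 182 and 192 in WT, with log2 fold changes of 0.44 (SE 0.13, adjusted p = 0.0392) against WT and 0.56 (SE 0.13, adjusted p = 0.0257) against sr45a.

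Among the genes that fell, AT3G05635 had 2, 0 and 4 counts in SR45a-1a-OE against 16, 12 and 14 in WT (log2 change −2.67 ± 0.73 SE, adjusted p = 0.0310). AT1G07167 had 3, 0 and 4 counts in SR45a-1a-OE against 12, 10 and 15 in WT (−2.28, SE 0.60, adjusted p = 0.0265), and 36.1% of its bases have a copy elsewhere. AT1G07167 reached the minimum summed count only with its WT counts. A difference from WT is thus partly built into its selection, and its call is given as a description. AT1G06417 had 6, 3 and 14 counts in SR45a-1a-OE against 39, 24 and 22 in WT (−1.81, SE 0.45, adjusted p = 0.0218). None of the 3 overlapped between these genotypes. AT4G39404 starts 35 bp from PLS, the gene of the POLARIS root peptide, and had 1.29, 0.647 and 1.81 CPM in SR45a-1a-OE, 2.73, 2.33 and 1.34 in sr45a and 3.10, 3.35 and 3.99 in WT (log2 change −1.47 ± 0.34 SE, adjusted p = 0.0164). The summed root markers were lower in SR45a-1a-OE than in WT as well, as given above, and their part in this result was not tested. AT3G52748, 15 bp from the chloroplast division gene FTSZ2-2, fell by 1.13 (SE 0.30, adjusted p = 0.0286), whereas FTSZ2-2 changed by 0.01. AT2G04852 fell by 1.57 (SE 0.47, adjusted p = 0.0419). AT1G25098 fell by 1.71 (SE 0.47, adjusted p = 0.0329), but its groups overlapped, with 5.72, 3.38 and 3.48 CPM in SR45a-1a-OE against 4.56, 18.0 and 18.5 CPM in WT, and all of its bases have a copy elsewhere. AT2G15292 had the smallest change, −0.31 (SE 0.09, adjusted p = 0.0369), at 28.4, 27.8 and 30.6 CPM in SR45a-1a-OE against 38.2, 33.7 and 35.9 CPM in WT.

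The calls rested on few libraries. Of the 26 calls named for SR45a-1a-OE against WT, 20 ended without SR45a-1a-OE replicate 1, at adjusted p from 0.0525 to 0.156. The number was 19 without WT replicate 2, 11 without SR45a-1a-OE replicate 2 and 3 without SR45a-1a-OE replicate 3. It was 14 of 25 without WT replicate 1 and 12 of 25 without WT replicate 3, since AT1G07167 was not tested in these runs. The 6 genes named first in this comparison passed each time they were tested. For AT3G06955 and AT4G05025, selected through the genotype where they are high, this is a description. Of the non-coding RNA genes tested in each run, 9 passed without SR45a-1a-OE replicate 1 and 10 without WT replicate 2. The count was 17 without WT replicate 1 and 23 without WT replicate 3, against 40 with all libraries. Among all genes tested, 1060 passed without WT replicate 2, and fewer still without SR45a-1a-OE replicate 1. That number was 1410 without WT replicate 1 and 1836 without WT replicate 3, against 3084 with all libraries.

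AT2G05215, AT2G05365 and AT2G05155 lie in the stretch of chromosome 2 that copies the mitochondrial genome, and all of their bases have a copy of at least 95% identity there. Whether their reads come from these genes or from mitochondrial RNA is therefore uncertain. AT2G05365 had 5.17, 5.83 and 9.97 CPM in SR45a-1a-OE, 22.3, 23.3 and 13.7 in sr45a and 13.8, 13.6 and 14.5 in WT. AT2G05215 had 3.08, 3.98 and 6.35 CPM in SR45a-1a-OE, 12.2, 11.1 and 8.56 in sr45a and 9.92, 9.74 and 9.75 in WT. All SR45a-1a-OE values lay below the other 6 in both genes. AT2G05365, AT2G05215 and AT2G05155 fell in SR45a-1a-OE against WT by 1.0 (SE 0.25, adjusted p = 0.0204), 1.13 (SE 0.23, adjusted p = 0.00973) and 1.03 (SE 0.26, adjusted p = 0.0219) on the log2 scale. Genes of the mitochondrial genome took 0.0487, 0.0474 and 0.0699% of the counts in SR45a-1a-OE, 0.129, 0.155 and 0.0883% in sr45a and 0.160, 0.0897 and 0.0927% in WT, so they were lowest in SR45a-1a-OE too, and their part in these calls was not tested. AT2G07806, a coding gene 643 bp from AT2G05365, fell by 1.14 (SE 0.25, adjusted p = 0.0121).

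**Figure D4:**
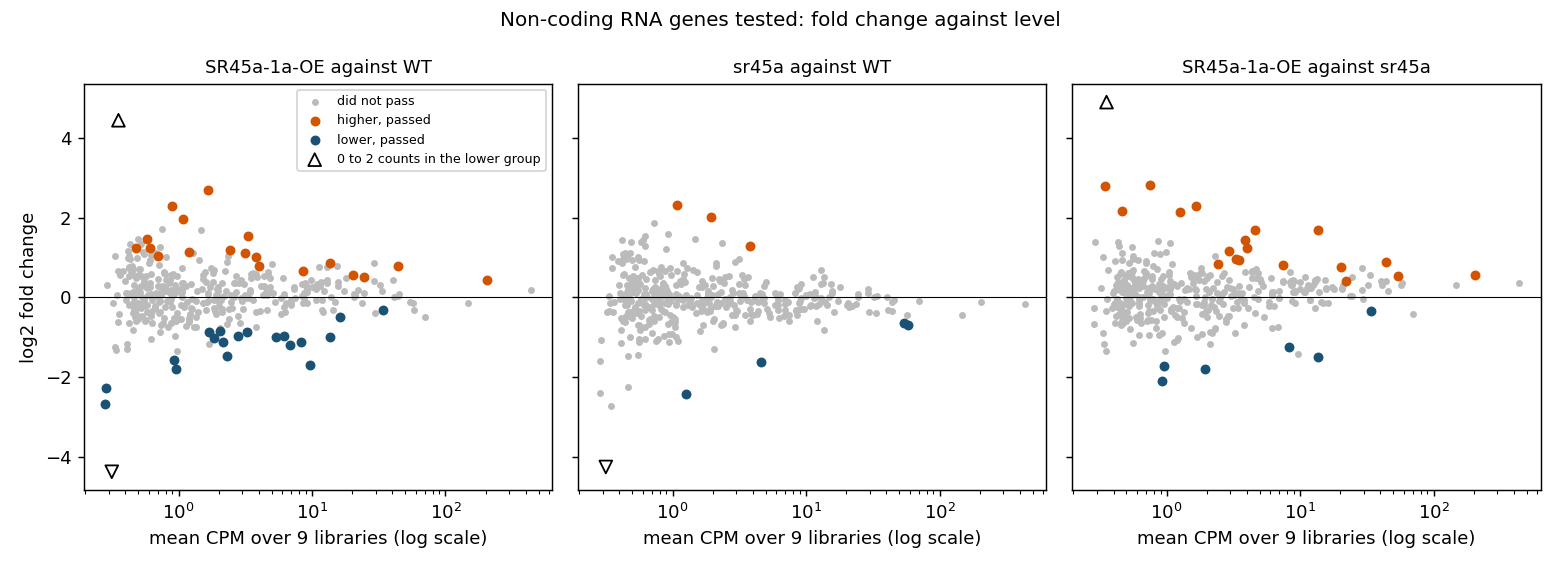
Log2 fold change against mean CPM over 9 libraries (log scale) for the non-coding RNA genes tested, in 3 comparisons. Orange and blue points passed the test as higher or lower: 20 and 20, 3 and 5, and 20 and 6 genes, open triangles included. Triangles mark AT3G06955 and AT4G05025, drawn at the bound or ratio given in the text.

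sr45a against WT asks what differs when SR45a is lost. AT3G29644, AT4G02005, AT2G14878, AT2G08820 and AT4G05025 fell, and AT1G07373, AT4G04223 and AT5G02565 rose. These 8 are 2.02% of the 396 genes tested, beside 1.62% of all genes (0.861% higher and 0.761% lower), and 6 of the 8 changed 2-fold or more, 1.52% beside 0.89% of all genes. The median log2 fold change of the tested non-coding RNA genes was −0.04 beside −0.00 for all genes. In all 8, which were picked by the test, the groups did not overlap, and this is no separate support. Seed markers, at 21.9 to 39.3 CPM in sr45a against 0.557 to 0.781 CPM in WT, moved with this comparison, and their part was not tested.

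AT3G29644 had the smallest adjusted p. It is a long non-coding RNA gene at chr3:11498879-11501424 on the minus strand, antisense in part to the pseudogene AT3G29642, and 21.6% of its bases have a copy elsewhere. It had 5.22, 6.20 and 6.87 CPM in SR45a-1a-OE, 2.26, 1.69 and 1.69 in sr45a and 5.45, 5.84 and 6.41 in WT. The sr45a libraries were low, and SR45a-1a-OE overlapped WT. Its log2 fold change was −1.64 in sr45a against WT (SE 0.19, adjusted p = 0.00148), a 3.11-fold lower level, and 1.69 in SR45a-1a-OE against sr45a (SE 0.19, adjusted p = 0.00107). Both calls held in every setting tried.

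AT4G02005 had 63.5, 50.8 and 58.0 CPM in SR45a-1a-OE, 44.3, 48.1 and 41.3 in sr45a and 78.9, 66.9 and 70.7 in WT, with no overlap between genotypes. It fell in sr45a by 0.69 on the log2 scale (SE 0.11, adjusted p = 0.00890). AT2G14878 had 43.1, 39.1 and 39.7 CPM in sr45a against 58.2, 65.9 and 68.0 CPM in WT (log2 change −0.65 ± 0.14 SE, adjusted p = 0.0365). AT2G08820 had 10, 7 and 4 counts in sr45a against 36, 40 and 49 counts in WT (log2 change −2.44 ± 0.47 SE, adjusted p = 0.0236). AT4G04223 rose, with 6.01, 5.61 and 5.27 CPM in sr45a against 2.30, 2.34 and 2.32 CPM in WT (log2 change 1.28 ± 0.22 SE, adjusted p = 0.0148), but all of its bases have a copy elsewhere. AT1G08947 had 1, 1 and 2 counts in sr45a against 8, 7 and 16 counts in WT, and this difference of −2.73 ± 0.71 (SE) log2 units missed the threshold (adjusted p = 0.0854). AT3G06955, the other large value that did not pass, is given above by its counts.

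AT1G07373 had 25, 27 and 16 counts in SR45a-1a-OE, 95, 87 and 48 counts in sr45a and 27, 23 and 12 counts in WT. It rose in sr45a by 2.01 log2 units (SE 0.34, adjusted p = 0.0136) and was lower in SR45a-1a-OE than in sr45a (log2 change −1.81 ± 0.34 SE, adjusted p = 0.0120). Its neighbour among the non-coding genes, AT1G07367, had 10, 10 and 6 counts in SR45a-1a-OE, 46, 31 and 31 in sr45a and 25, 13 and 1 in WT, and was lower in SR45a-1a-OE than in sr45a (log2 change −2.09 ± 0.58 SE, adjusted p = 0.0493). The coding gene nearest to it, AT1G47400, had log2 fold changes of 1.27 in sr45a against WT (SE 0.37, adjusted p = 0.121) and −1.34 in SR45a-1a-OE against sr45a (SE 0.37, adjusted p = 0.0502). The coding gene nearest to AT1G07373, AT1G47410, had values of −0.35 (adjusted p = 0.272) and 0.67 (adjusted p = 0.0199) in the same comparisons.

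Without sr45a replicate 1, 7 of these 8 calls ended, at adjusted p from 0.0502 to 0.0909. The number was 6 without WT replicate 2 or sr45a replicate 2, 5 without WT replicate 1 or WT replicate 3, and 3 without sr45a replicate 3. Over the non-coding RNA genes tested, 1 passed without sr45a replicate 1 and 2 without WT replicate 2. The count was 3 each without WT replicate 1, WT replicate 3 or sr45a replicate 2. Over all genes tested, 139, 106, 137, 151 and 137 passed in the same order, against 326 with all libraries. Leaving out SR45a-1a-OE replicate 1, which enters through the pooled spread, ended 2.

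SR45a-1a-OE against sr45a sets raised against lost SR45a. AT2G04365, AT3G06955, AT3G29644, AT4G09845 and 16 more genes were higher in SR45a-1a-OE, and AT2G05365, AT2G05215, AT1G07367, AT1G07373, AT1G06417 and AT2G15292 were lower. The 26 genes are 6.57% of those tested beside 7.26% of all genes. The 20 higher ones are 5.05% beside 2.81% of all genes, and the 6 lower ones 1.52% beside 4.45%. With a change of 2-fold or more, 16 passed, 4.04% beside 2.41% of all genes. This comparison shares its libraries with both others, so its values stand beside theirs and add no separate evidence. The median log2 fold change was 0.15 beside 0.01 for all genes. In all 26, which were picked by the test, the groups did not overlap, and this is no separate support.

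AT1G21529 had 28, 60 and 11 counts in SR45a-1a-OE against 2, 7 and 4 in sr45a, with 5, 8 and 18 in WT. Its log2 fold change was 2.82 in SR45a-1a-OE against sr45a (SE 0.71, adjusted p = 0.0355) and 1.71 in SR45a-1a-OE against WT (SE 0.61, adjusted p = 0.0780), where it overlapped. AT1G08947 had 10, 16 and 5 counts in SR45a-1a-OE against 1, 1 and 2 in sr45a (log2 change 2.78 ± 0.70 SE, adjusted p = 0.0365). AT1G21529 reached the minimum summed count only with its SR45a-1a-OE counts, and AT1G08947 only with its SR45a-1a-OE and WT counts together. A difference from sr45a is thus partly built into the selection of both genes, and their calls are given as a description. AT2G08820 had 29, 53 and 16 counts in SR45a-1a-OE against 10, 7 and 4 in sr45a (log2 change 2.14 ± 0.48 SE, adjusted p = 0.0235). In all 3, and in TAS4, SR45a-1a-OE replicate 2 was the highest and SR45a-1a-OE replicate 3 the lowest of its group. AT2G14878 followed at 59.2, 46.3 and 70.7 CPM in SR45a-1a-OE against 43.1, 39.1 and 39.7 CPM in sr45a (log2 change 0.53 ± 0.14 SE, adjusted p = 0.0398). AT1G06417 and AT2G15292 were lower, with log2 fold changes of −1.72 (SE 0.46, adjusted p = 0.0444) and −0.34 (SE 0.09, adjusted p = 0.0409). The largest values that did not pass were those of AT4G06835, with 30, 16 and 31 counts in SR45a-1a-OE against 1, 16 and 10 in sr45a (1.42, SE 0.57, adjusted p = 0.149), and AT1G25098 (−1.41, SE 0.48, adjusted p = 0.0949).

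Of the 20 calls named here, 15 ended without sr45a replicate 1, at adjusted p from 0.0615 to 0.189. The number was 13 without sr45a replicate 2, 12 without SR45a-1a-OE replicate 1, 9 without SR45a-1a-OE replicate 2 or WT replicate 2, 6 without WT replicate 3, 4 without WT replicate 1, 3 without sr45a replicate 3 and 2 without SR45a-1a-OE replicate 3. AT2G04365, AT3G06955, AT3G29644, AT4G09845 and AT2G05365 passed each time they were tested. For AT3G06955, selected through its SR45a-1a-OE counts, this is a description. Over the non-coding RNA genes tested, 5 passed without sr45a replicate 1 and 8 without SR45a-1a-OE replicate 1. The count was 10 without sr45a replicate 2 and 16 without WT replicate 2. It was 38 without SR45a-1a-OE replicate 3 and 40 without sr45a replicate 3, against 26 with all libraries. Over all genes tested, 270, 300, 417, 803, 2653 and 2310 passed in the same order, against 1459 with all libraries.

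The promoters of the members were searched for GAANNTTC (core of the heat shock element), GNATATNC (the P1BS element, bound by the phosphate starvation regulator PHR1) and CACGTG (the G-box) on both strands, from 250 bases before to 50 after the annotated start. GAANNTTC was in 11.1% of the 485 members' promoters and in 11.6% of 27561 coding promoters, GNATATNC in 7.0% and 6.3%, and CACGTG in 4.5% and 7.7%. Of the 54 members that passed in any comparison, 1, 5 and 5 held the motifs in the same order, which is 1.9, 9.3 and 9.3%. The 5 with GNATATNC are AT1G08947, AT1G21529, AT2G08820, AT2G14878 and TAS4, and all 5 were among the 20 genes higher in SR45a-1a-OE than in sr45a, a description made after the values were seen. They are shown because they share the motif and the call. AT1G08947 and AT1G21529 are among the 485 genes only because their SR45a-1a-OE counts were included, so their calls are a description. Within SR45a-1a-OE, AT2G14878 was lowest in replicate 2 and highest in replicate 3, the opposite of the other 4. GNATATNC is in capitals, each window reads 5′ to 3′ on the gene's strand, and no match is a shown binding site.
AT1G08947, chr1:25338343-25338642, minus strand: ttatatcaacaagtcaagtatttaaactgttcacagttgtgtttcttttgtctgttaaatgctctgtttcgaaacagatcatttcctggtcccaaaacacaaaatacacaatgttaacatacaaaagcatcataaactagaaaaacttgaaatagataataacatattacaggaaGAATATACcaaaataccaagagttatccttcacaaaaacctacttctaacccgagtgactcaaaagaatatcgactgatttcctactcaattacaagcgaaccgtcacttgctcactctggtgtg
AT1G21529, chr1:7544629-7544928, minus strand: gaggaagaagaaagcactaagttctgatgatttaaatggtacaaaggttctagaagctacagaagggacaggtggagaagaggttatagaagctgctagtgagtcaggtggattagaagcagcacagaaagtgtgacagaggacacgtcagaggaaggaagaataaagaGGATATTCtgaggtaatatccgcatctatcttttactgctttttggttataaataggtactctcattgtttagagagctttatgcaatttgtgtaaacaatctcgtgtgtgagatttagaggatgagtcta
AT2G08820, chr2:15403852-15404151, minus strand: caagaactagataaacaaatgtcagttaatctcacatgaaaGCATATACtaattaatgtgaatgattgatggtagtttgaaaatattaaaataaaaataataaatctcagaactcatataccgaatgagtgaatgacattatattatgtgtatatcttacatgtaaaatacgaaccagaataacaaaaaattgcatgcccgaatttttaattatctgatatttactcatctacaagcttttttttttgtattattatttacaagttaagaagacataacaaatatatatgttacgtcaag
AT2G14878, chr2:6391917-6392216, plus strand: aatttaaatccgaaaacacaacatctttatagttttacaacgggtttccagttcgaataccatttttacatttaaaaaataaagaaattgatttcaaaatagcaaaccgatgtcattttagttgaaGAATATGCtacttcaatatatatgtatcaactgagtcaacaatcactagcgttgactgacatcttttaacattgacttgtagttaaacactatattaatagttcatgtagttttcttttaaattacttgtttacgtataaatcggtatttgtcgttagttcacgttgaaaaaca
TAS4, chr3:9418656-9418955, minus strand: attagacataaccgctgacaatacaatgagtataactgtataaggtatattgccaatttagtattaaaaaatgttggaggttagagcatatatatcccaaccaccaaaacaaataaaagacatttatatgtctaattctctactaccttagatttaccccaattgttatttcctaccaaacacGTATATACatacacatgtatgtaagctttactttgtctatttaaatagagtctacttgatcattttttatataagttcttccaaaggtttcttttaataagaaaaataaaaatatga
The match begins 75, 81, 209, 124 and 67 bases before the annotated start in this order.

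Members that lie antisense to a coding gene were set beside that gene. Whether counting kept strand is not given in the sources used here, so a member and the gene it overlaps can share reads. AT5G02515, wholly inside AT5G16030 on the other strand, had 3.33, 2.91 and 6.12 CPM in SR45a-1a-OE, 6.38, 7.09 and 7.36 in sr45a and 11.3, 8.36 and 8.91 in WT. It fell by 1.21 on the log2 scale in SR45a-1a-OE against WT (SE 0.24, adjusted p = 0.00962), and AT5G16030 fell by 1.22 (SE 0.23, adjusted p = 0.00828). AT3G03265, inside the water channel gene DELTA-TIP and named after its values were seen, fell by 0.97 (SE 0.18, adjusted p = 0.00758) beside 0.99 (SE 0.16, adjusted p = 0.00416) for DELTA-TIP. In these pairs the member and the coding gene moved by nearly the same amount.

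AT2G19582 overlaps the tetraspanin gene TET2 over 95.8% of its length on the other strand. It had 6.36, 5.83 and 3.85 CPM in SR45a-1a-OE, 1.94, 2.91 and 3.33 in sr45a and 2.08, 1.88 and 1.53 in WT. On the log2 scale SR45a-1a-OE exceeded WT by 1.54 (SE 0.26, adjusted p = 0.00503) and sr45a by 0.97 (SE 0.25, adjusted p = 0.0388), whereas TET2 had values of 0.62 (SE 0.21, adjusted p = 0.0692) and 0.13 (SE 0.21, adjusted p = 0.752). AT1G04827 lies wholly inside AT1G10865, which changed by 0.24 in SR45a-1a-OE against WT and did not pass. AT1G09287, inside AT1G71950, had 23, 65 and 41 counts in SR45a-1a-OE and 2, 24 and 15 in WT, and this difference of 1.69 ± 0.65 (SE) log2 units missed the threshold (adjusted p = 0.0970), while AT1G71950 rose by 0.62 (SE 0.13, adjusted p = 0.0122).

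Across genes, the log2 fold changes in SR45a-1a-OE against WT of 119 antisense members and their coding genes had a Pearson correlation of 0.55, that of 21 same-strand pairs 0.54, and that of 137 members between genes with their nearest coding gene 0.17. In sr45a against WT the values were 0.27, 0.20 and 0.13, and in SR45a-1a-OE against sr45a 0.43, 0.16 and 0.29, where same-strand pairs stood below those between genes. The pairs share the same libraries and, where they overlap, possibly reads, and genes are not independent replicates. Of the 174 antisense members tested, 3 rose and 9 fell in SR45a-1a-OE against WT, and of the 192 between genes 16 rose and 10 fell, where 6.76% of all genes tested rose and 8.59% fell. In sr45a against WT the 8 members called with edgeR lay between coding genes, where 192 of the 396 tested members lie. Of the antisense members, 0 passed there with edgeR, 5 were higher and 14 lower at an unadjusted p under 0.05, and DESeq2 called 0 higher and 1 lower. Of the 30 members on the same strand, 0 passed with edgeR or with DESeq2, and 1 was higher and 2 were lower at an unadjusted p under 0.05. A difference between these classes was not tested.

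**Figure D5:**
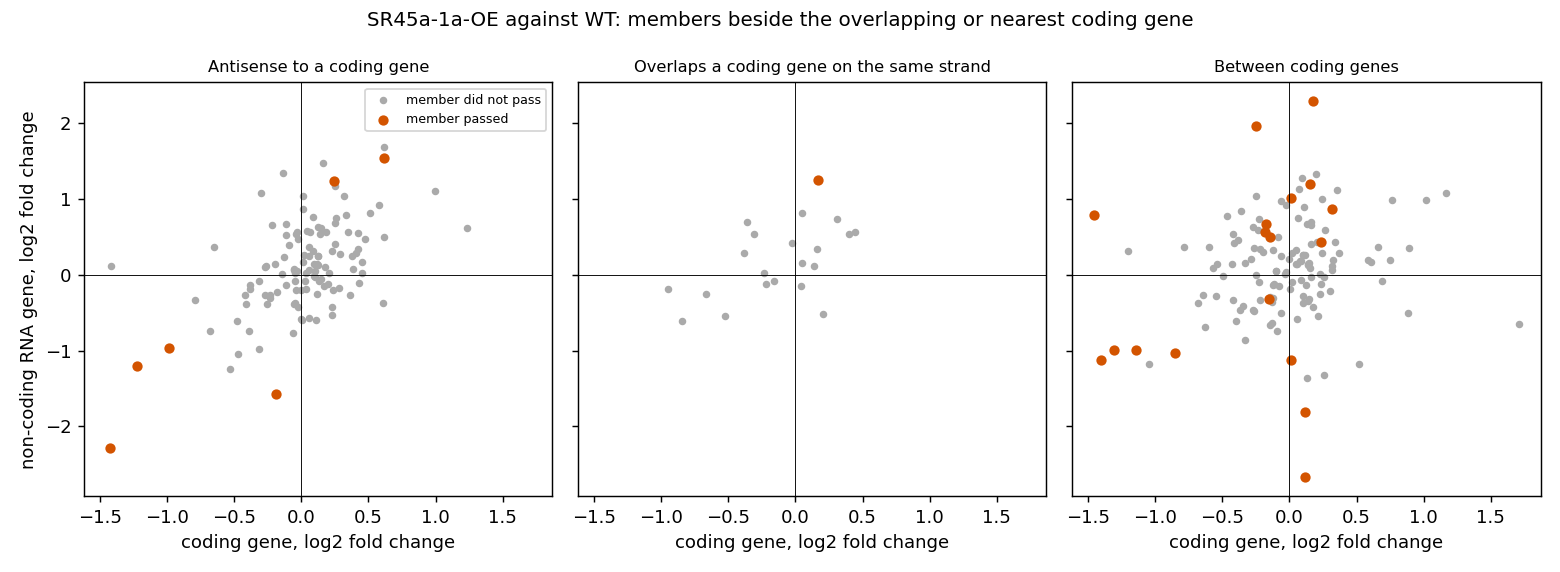
Log2 fold change of each tested non-coding RNA gene (vertical) against that of the coding gene it overlaps or lies nearest to (horizontal), SR45a-1a-OE against WT. Orange points are members that passed. Pearson's r across genes is 0.55 over 119 members antisense to a coding gene and 0.17 over 137 members between genes, a difference that was not tested, and AT4G05025 is left out because its SR45a-1a-OE group is at 0.

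Of 38 genes of small RNA production, RNA decay and RNA binding, 37 were tested. In SR45a-1a-OE against WT 5 fell and 1 rose, where 8.59% of all genes tested fell and 6.76% rose. In sr45a against WT 0 passed with edgeR or with DESeq2, and 9 were lower at an unadjusted p under 0.05. In SR45a-1a-OE against sr45a 2 were lower and 1 higher, beside 4.45% and 2.81% of all genes. The median log2 fold changes were −0.13, −0.19 and 0.08. RDR6 and SGS3, which turn TAS transcripts into double-stranded RNA, fell in SR45a-1a-OE against WT to 56.5 ± 7.25 CPM against 79.9 ± 7.03 CPM (log2 change −0.50 ± 0.11 SE, adjusted p = 0.0139) and to 9.74 ± 0.658 CPM against 14.96 ± 0.339 CPM (−0.62, SE 0.13, adjusted p = 0.0117). AGO4, NRPE1 and NRPD2, of RNA-directed DNA methylation, fell by 1.01 (SE 0.15, adjusted p = 0.00335), 0.88 (SE 0.24, adjusted p = 0.0283) and 0.85 (SE 0.17, adjusted p = 0.00958) on the log2 scale. NSRA, a nuclear speckle RNA-binding protein, rose by 0.38 (SE 0.11, adjusted p = 0.0408). AGO4 and SGS3 were also lower, and the nonsense-mediated decay factor UPF3 higher, in SR45a-1a-OE than in sr45a.

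Of 18 loci studied as non-coding RNAs in Arabidopsis, the TAS loci and GUT15 included, 15 were in the tables and 10 were tested. Against WT 0 passed in either genotype with edgeR or with DESeq2. At an unadjusted p under 0.05 there was 1 in SR45a-1a-OE, and there were 3 in sr45a. In SR45a-1a-OE against sr45a, TAS4 and AT1G21529 were higher and AT2G34655 was lower, where 2.81% of all genes tested were higher and 4.45% lower. AT1G21529 is among the 485 genes only through its SR45a-1a-OE counts, so its call is a description. The tables describe AT2G34655 as a hypothetical protein, and it is not among the 485 genes. It had 4, 2 and 0 counts in SR45a-1a-OE against 14, 13 and 16 in sr45a (log2 change −2.83 ± 0.62 SE, adjusted p = 0.0230). Median log2 fold changes of the 10 were −0.05, −0.19 and 0.19 in SR45a-1a-OE against WT, sr45a against WT and SR45a-1a-OE against sr45a. ZPR4 (AT2G36307), the little zipper gene that the tables describe as a non-coding RNA, averaged 3.27 ± 0.544, 3.58 ± 0.627 and 3.33 ± 0.497 CPM in SR45a-1a-OE, sr45a and WT and did not pass.

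In 3 of the 304 members with 1 exon, the whole annotated span reads as 1 open frame from ATG to a stop: AT3G57157, AT4G39404 and AT5G03285, with 78, 92 and 67 codons before the stop. They were picked by that reading, after values were seen. AT4G39404 fell in SR45a-1a-OE against WT, as given above. AT5G03285, beside EIN2, had 12.3, 9.62 and 10.6 CPM in SR45a-1a-OE, 7.86, 8.78 and 7.91 in sr45a and 7.40, 6.52 and 6.55 in WT. It rose in SR45a-1a-OE against WT by 0.67 (SE 0.14, adjusted p = 0.0101), with no overlap between these groups.

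The authors' transcript estimates, a second quantification of the same libraries, covered 737 transcripts of 458 members, and 617 were tested. With edgeR 0 member transcripts passed in SR45a-1a-OE against WT, sr45a against WT and SR45a-1a-OE against sr45a, where 0.0389, 0.0556 and 0.0667% of all 35982 transcripts did. At an unadjusted p under 0.05 there were 35 higher and 20 lower, 21 higher and 29 lower, and 49 higher and 27 lower. Among members that passed as genes and had a tested transcript, at least 1 transcript had the sign of the gene in 34 of 35, 8 of 8 and 23 of 23.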

How the data were processed

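RNA of heated seedlings was isolated with Trizol and sequenced on a NovaSeq instrument in pairs of 150-bp reads, and fastp kept reads of at least 36 bp, per the labels' protocols. The aligner, counter, genome build and strand setting are not given in the sources used here. The authors deposited gene counts, FPKM values for genes and transcripts, and transcript counts, per the file headers, and the deposited transcript table was treated as estimated counts because its sums exceed those of the genes. Gene ends equalled those of TAIR10.1 for 26961 of 26968 genes, so sequences and neighbours were taken from the RefSeq copy of that build.

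The deposited counts were tested with edgeR 4.0.16 in R 4.3.3 (quasi-likelihood test, TMM factors, minimum count 10 and minimum total 15, Benjamini-Hochberg over 20103 genes, threshold 0.05), 1 coefficient per genotype over all 9 libraries. Transcript estimates were rounded and tested likewise. Ranges of a log2 fold change are the estimate ± 1.96 SE, which is narrower than a 95% interval with so few libraries. SD and SE refer to 3 libraries per genotype. The scripts were tested on simulated data. Alternatives were DESeq2 1.42.0, limma 3.58.1 on log2 values of the authors' FPKM with pseudocounts 1 and 0.1, other filters and scalings, a replicate block, and libraries left out. Copies were searched with BLAST 2.17.0 at 95% identity. Python 3.11.15 with pandas 2.3.3 gave the summaries, and matplotlib 3.10.9 the plots. Genes named are those with a symbol and 1 CPM or more, in each comparison up to 10 with the largest rise and up to 10 with the largest fall among those that passed (all where at most 20 passed), the 5 strongest by CPM and by FPKM, the 2 largest values per comparison that did not pass, and their neighbours. The members, lists and rule were chosen with earlier results of these data known. The 4 loci left out by the rule are not used here.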

Additional observations from a re-analysis of the deposited data

How the results depend on the processing

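The counts of genes that passed depend on single libraries and on the test, while none of the named calls changed direction in any alternative that gave a value. In SR45a-1a-OE against WT, leaving out 1 library gave 5 to 26 higher and 3 to 24 lower genes; in sr45a against WT it gave 0 to 4 higher and 1 to 9 lower; in SR45a-1a-OE against sr45a it gave 4 to 26 higher and 1 to 14 lower. With an arm of 2 libraries, the spread was pooled over all groups. A log2 fold change of at least 1 as a second threshold left 13 higher and 11 lower genes in SR45a-1a-OE against WT, 3 lower in sr45a against WT and 11 higher in SR45a-1a-OE against sr45a. DESeq2, which tested 485 genes, gave 5 higher in sr45a against WT, and 31 higher and 14 lower in SR45a-1a-OE against sr45a. Leaving out SR45a-1a-OE replicate 3 and sr45a replicate 3 together gave 6 higher and 8 lower in sr45a against WT, and 23 lower in SR45a-1a-OE against sr45a. limma on log2(FPKM + 0.1) gave 10 lower in sr45a against WT, and on log2(FPKM + 1) 9 lower there and 10 lower in SR45a-1a-OE against sr45a. Fitting only the 6 libraries compared gave 8 lower in sr45a against WT and 8 higher in SR45a-1a-OE against sr45a. Over all genes tested, DESeq2 called 704 in sr45a against WT and 2154 in SR45a-1a-OE against sr45a, where the main test called 326 and 1459. Leaving out SR45a-1a-OE replicate 3 and sr45a replicate 3 gave 365 and 4160, and only the 6 libraries gave 532 and 557. limma called 310 with pseudocount 0.1 and 313 with 1 in sr45a against WT, and 1349 with 1 in SR45a-1a-OE against sr45a. Where no fewer genes or libraries explain such a difference by construction, the cause was not tested.

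With a replicate block, 11 genes were lower in SR45a-1a-OE against WT, and 9 were higher and 3 lower in SR45a-1a-OE against sr45a. In all, 25, 6 and 12 non-coding RNA genes passed with the block in the 3 comparisons, against 40, 8 and 26 without it. Over all genes tested, 1842, 193 and 575 passed with the block, against 3084, 326 and 1459 without it. Correlations of the deviations of same-numbered libraries ran from −0.331 to 0.186, and those of differently numbered ones from −0.302 to 0.336. The numbers thus gave no sign of pairing, but a batch shared across genotypes in another order was not tested. AT3G06955 gave no value in sr45a against WT where a left-out library put both groups at 0. Low counts limit what could be detected: the 89 genes with too few counts were not tested. What separates the libraries of a genotype is not given in the sources used here.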
